A study of Mus musculus with 23 samples.

Results

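The genes examined here carry out or mark the cell division cycle: 37 genes of DNA replication, cyclins and mitosis, chosen by name from the probes of the array. All 37 were printed on the array, and 36 of them were among the 21477 genes measured above background. The remaining one, Aurkb, a mitotic kinase of the chromosomal passenger complex, had 1 probe that was not well above background on any of the 23 arrays. Gene expression had been measured in scrapings of the small intestine of adult male C57BL/6J mice, 1 mouse per array. Every mouse ate a normal-fat diet during an adaptation of 3 weeks and afterwards a high-fat diet for 12 weeks. That diet held either no quercetin (HF, 12 mice) or 0.33% by weight of quercetin, a plant flavonol (HF-Q, 11 mice). All were fasted briefly before tissue was taken. No normal-fat group is analysed here, so every mouse compared had eaten the high-fat diet. The Cy5-labelled RNA of each mouse was read against 1 Cy3-labelled pool of RNA from all mice, with no dye swap, and each value below is a log2 ratio to that pool.

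A dividing cell first loads the MCM helicase onto its replication origins, then copies its DNA in S phase, and finally separates the copies in mitosis under the control of cyclin-dependent kinases. In the small intestine, stem cells and their rapidly dividing daughters sit in the crypts, while the enterocytes that cover the villi have left the cell cycle. Many S phase genes are switched on by E2F factors once the retinoblastoma protein has been inactivated, and many mitotic genes are controlled through elements called CHR and CCAAT in their promoters.

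The 10 genes of origin licensing and of the helicase were Mcm2 to Mcm7, Cdc6, Cdt1, Gins1 and Gins2, and the 7 genes of DNA synthesis and nucleotide supply were Pcna, Lig1, Fen1, Rrm1, Rrm2, Tyms and Tk1. These 17 are called the replication genes below. The 18 mitotic genes, of which 17 were measured, were the cyclins and kinases Cdk1, Ccna2, Ccnb1, Ccnb2, Plk1, Aurka and Aurkb, the checkpoint and mitotic exit genes Bub1, Bub1b, Cdc20, Ube2c and Birc5, and the spindle and chromosome genes Kif11, Tpx2, Cenpa, Cenpe, Top2a and Mki67. The G1 cyclins Ccnd1 and Ccne1 belong to neither group. All 36 measured genes were well above background on all 23 arrays, and 0 of their spots were saturated. The tissue label was checked against its markers: 12 of 12 enterocyte markers were well above background on all 23 arrays. A protocol field of the labels names liver, against the other labels. Of 10 hepatocyte markers, Ahsg and Mup3 were detected on 0 arrays, Fgb on 2, Hpx on 2, and Alb on 11, while the others (Fga, Apoh, Serpina1a, Tat and Ttr) were detected on all 23.

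The promoters of 30 of the 37 genes were at hand from RefSeq on mouse assembly GRCm38.p6, and those of Aurkb, Ccna2, Ccnd1, Gins1, Gins2, Mcm4 and Tpx2 were not used here. The promoters of 6 genes are shown. Mcm5 and Mcm6 stand for replication genes, and Ccnb2, Cdk1 and Top2a for mitotic genes, that moved together over the mice, and Mcm2 is the helicase subunit that followed them least. Each line holds the 250 bases before the annotated start, 5′ to 3′ in the direction of the gene, and capitals mark 3 kinds of letters searched on both strands: TTTGGCGC, TTTCCCGC, TTTCGCGC or TTTGCCGC (E2F-type), TTTGAA (CHR) and CCAAT.
Mcm5 (chr8:75109259-75109508, plus strand): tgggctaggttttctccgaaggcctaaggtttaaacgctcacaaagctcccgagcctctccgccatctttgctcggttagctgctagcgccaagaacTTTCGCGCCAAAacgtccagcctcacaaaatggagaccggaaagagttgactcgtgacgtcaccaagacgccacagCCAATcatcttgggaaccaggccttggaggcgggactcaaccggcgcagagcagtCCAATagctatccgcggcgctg
Mcm6 (chr1:128359706-128359955, minus strand): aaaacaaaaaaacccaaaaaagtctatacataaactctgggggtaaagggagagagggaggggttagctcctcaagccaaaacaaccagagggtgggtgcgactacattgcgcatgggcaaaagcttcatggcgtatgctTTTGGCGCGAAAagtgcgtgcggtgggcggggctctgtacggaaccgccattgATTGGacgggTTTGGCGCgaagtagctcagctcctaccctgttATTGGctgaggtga
Mcm2 (chr6:88898781-88899030, minus strand): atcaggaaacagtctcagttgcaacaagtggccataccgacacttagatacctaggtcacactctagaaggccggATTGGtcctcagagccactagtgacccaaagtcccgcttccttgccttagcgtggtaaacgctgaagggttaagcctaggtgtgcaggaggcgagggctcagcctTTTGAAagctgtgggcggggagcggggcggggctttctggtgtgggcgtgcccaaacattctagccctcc
Cdk1 (chr10:69352913-69353162, minus strand): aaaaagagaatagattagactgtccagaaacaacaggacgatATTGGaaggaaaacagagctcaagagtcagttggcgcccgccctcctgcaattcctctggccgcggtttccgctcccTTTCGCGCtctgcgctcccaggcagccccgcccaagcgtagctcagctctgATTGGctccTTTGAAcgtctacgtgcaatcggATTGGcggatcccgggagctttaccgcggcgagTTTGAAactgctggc
Ccnb2 (chr9:70421555-70421804, minus strand): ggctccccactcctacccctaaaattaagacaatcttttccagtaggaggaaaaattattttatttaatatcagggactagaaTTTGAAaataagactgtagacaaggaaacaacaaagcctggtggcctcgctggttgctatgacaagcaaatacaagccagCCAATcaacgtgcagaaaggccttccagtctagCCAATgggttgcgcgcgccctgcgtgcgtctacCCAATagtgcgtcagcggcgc
Top2a (chr11:99024190-99024439, minus strand): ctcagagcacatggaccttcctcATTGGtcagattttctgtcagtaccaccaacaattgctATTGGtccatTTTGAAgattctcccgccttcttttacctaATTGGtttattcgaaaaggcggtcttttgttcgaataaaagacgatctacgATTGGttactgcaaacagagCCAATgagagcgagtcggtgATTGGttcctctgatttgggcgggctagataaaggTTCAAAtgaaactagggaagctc
In Mcm5 and Mcm6, E2F-type letters on one strand overlap E2F-type letters on the other, so that a run of 12 capitals appears. Mcm2 has no E2F-type letters in this window and has CHR letters 70 bases before the start. Rrm1, Rrm2 and Tk1 lack E2F-type letters too, yet correlated with the mean of the other replication genes at 0.972, 0.953 and 0.925. Pcna and Tyms, also without them, reached 0.632 and 0.409. Among genes with E2F-type letters, Mcm3, Mcm7 and Lig1 reached 0.981, 0.939 and 0.918, but Cdc6 and Cdt1 0.640 and 0.664. In Mcm3, Lig1 and Cdt1 these letters were found only after the start. A relation between letters and shared movement was not tested. Cdk1 carries all 3 kinds. Ccnb2 has CCAAT at 87, 54 and 21 bases before the start, evenly spaced, and Top2a has CCAAT letters 6 times.

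Counted over the window of 300 bases from 250 before to 50 after the start, E2F-type letters occurred in 7 of 14 replication genes with a promoter (50% of them) and in 1 of 15 mitotic genes (6.67%), namely Cdk1. Over all 27025 genes with a promoter the share was 2.60%. CHR letters showed the opposite split, with 2 of 14 replication genes (14.3%), Mcm2 and Fen1, and 11 of 15 mitotic genes (73.3%), against 20.2% of all genes. CCAAT letters were present in 8 of 14 replication genes (57.1%) and in 14 of 15 mitotic genes (93.3%), the exception being Birc5, against 41.1% of all genes. These matches describe letters and say nothing of binding in this tissue.

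Whether dietary quercetin changed the expression of these genes was asked by setting HF-Q against HF mice. Of the 36 measured genes, 34 had a higher mean in HF-Q mice and 2, Mcm2 and Cdt1, a lower one, where 48.1% of all genes were higher and 51.9% lower, but the differences were small. Their median was 0.071 on the log2 scale, against -0.0038 over all genes, and they ran from -0.10 (Mcm2) to 0.24 (Ccnd1). With the test of limma over all 21477 genes, 0 of the 36 passed an adjusted p of 0.05 (all genes: 0%), and 0 had an unadjusted p under 0.05 (all genes: 4.53%). The adjusted p ranged from 0.951 to 0.999. The values of the diets overlapped for all 36 genes, a count that was not set against the same count over all genes. These genes vary together over the mice, as described below, so the 34 are not 34 separate observations.

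The shared direction depended on which mice were included. Scrapings carried varying amounts of pancreatic acinar transcripts, and without the 5 mice highest in them (HF 1, 2, 4 and 11 and HF-Q 1) 16 of the 36 genes were higher and 20 lower, with a median of -0.0087. These mice were also mostly low in the mean of the mitotic genes. HF 1, HF 4, HF 2 and HF-Q 1 ranked 1, 3, 4 and 7 from the lowest, and HF 11 ranked 18. Leaving them out thus removed more low HF than low HF-Q mice, and a part of acinar content in the change was not tested. In the 15 mice numbered 5 and above in the labels, 30 were higher and 6 lower, and in the 8 mice numbered 1 to 4, 32 were higher and 4 lower. These subsets were chosen after the data were seen. The mean over all 36 genes was -0.036 ± 0.32 (SD, n = 12) in HF and 0.035 ± 0.26 (SD, n = 11) in HF-Q mice, a difference well under the spread within either diet. The 95% interval of the diet difference lay within 0.5 of 0 on the log2 scale for 35 of the 36 genes, Ccnd1 being the exception, and for 95.6% of all genes. In data simulated for this comparison, limma recovered 85 of 100 genes changed by 0.5 and 99 of 100 changed by 1 on the log2 scale. Both sets were changed in the same run, and noise was drawn independently for each gene, whereas the 36 genes vary together. Those rates are over genes of all kinds, whose median SE was 0.067, while the median SE of the 36 genes was 0.13, and recovery was not simulated for these genes alone.

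**Figure D1:**
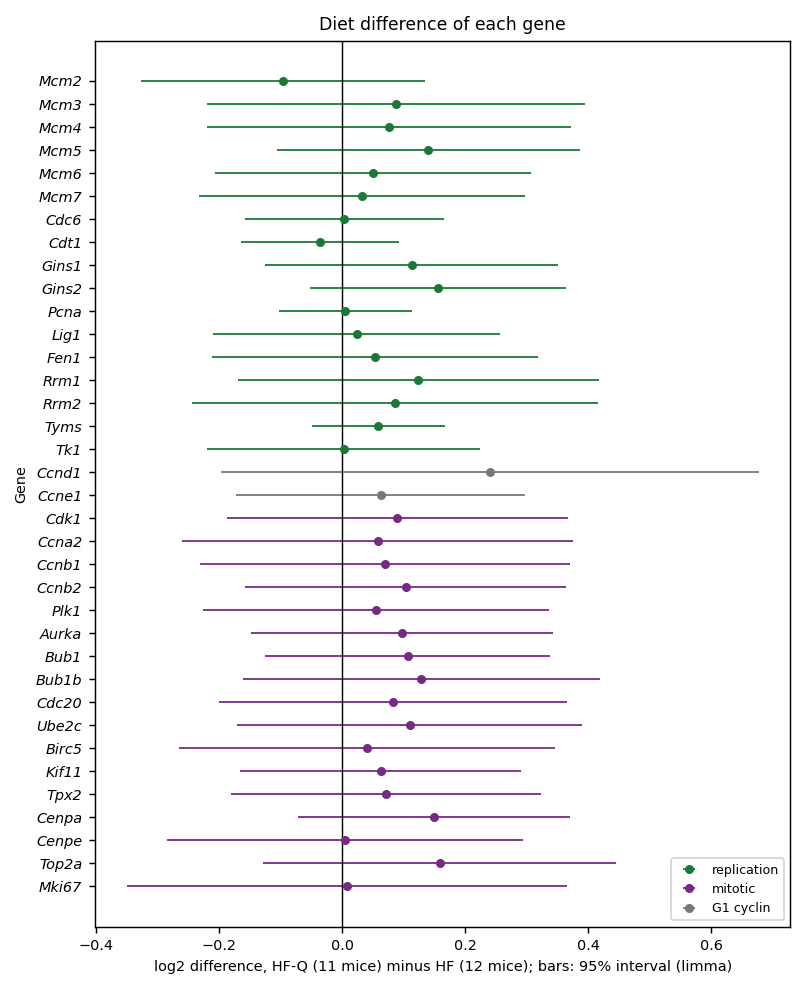
Diet difference of the 36 measured genes on the log2 scale (x axis, HF-Q minus HF; genes on the y axis by role), each point with its 95% interval from limma over 12 HF and 11 HF-Q mice. Points of 34 genes lie right of 0 and those of Mcm2 and Cdt1 left of it, and every interval includes 0.

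Among the licensing genes, whose products load and start the replicative helicase, 8 of 10 were higher and 2 lower in HF-Q mice, with a median of 0.063. Gins2, a subunit of the GINS complex that activates the helicase (probe at chr8:123112627-123112686 on build mm9 of the files), ranged from -0.63 to 0.23 (median -0.20) in HF mice and from -0.50 to 0.50 (median 0.044) in HF-Q mice. Its difference of 0.16 ± 0.10 (SE) had the smallest unadjusted p of the 36 genes (p = 0.136, adjusted p = 0.951 by limma), and the median of the HF mice was exceeded by 10 of the 11 HF-Q mice. The ranges nevertheless overlapped over most of their length. Its partner in the complex, Gins1, differed by 0.11 ± 0.12 (SE), with 8 of 11 above its own HF median. Mcm5, a subunit of the helicase ring (mm9 chr8:77651350-77651410), ranged from -0.59 to 0.31 (median 0.040) in HF mice and from -0.45 to 0.37 (median 0.20) in HF-Q mice and differed by 0.14 ± 0.12 (SE) (95% interval -0.11 to 0.39). The other ring subunits had smaller differences, at 0.088 for Mcm3, 0.076 for Mcm4, 0.050 for Mcm6 and 0.032 for Mcm7. Their lowest values came from both diets, HF 1 being lowest for Mcm3, Mcm4, Mcm5 and Mcm7 and HF-Q 2 for Mcm6.

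Mcm2, a further subunit of the ring, went the other way. Its probe (mm9 chr6:88833619-88833678) ranged from -0.45 to 0.24 (median 0.089) in HF mice and from -0.73 to 0.30 (median -0.024) in HF-Q mice, with a difference of -0.10 ± 0.11 (SE) (95% interval -0.33 to 0.13), and 5 of the 11 HF-Q mice exceeded the median of the HF mice. The sign was not stable over the slides: the Mcm2 difference was 0.20 on slide 1, -0.17 on slide 2 and -0.33 on slide 3. Cdt1, which brings the helicase to the origin, ranged from -0.21 to 0.10 (median -0.064) in HF mice and from -0.51 to 0.10 (median -0.034) in HF-Q mice and differed by -0.036 ± 0.062 (SE). The values of HF-Q 2 and HF-Q 1 lay below all HF mice, and otherwise the groups overlapped. With each array centred on its median, the Cdt1 difference turned to 0.046. Cdc6, the loading ATPase that acts with Cdt1, differed by 0.0034 ± 0.079 (SE), and both of its extreme values were HF-Q mice, HF-Q 3 lowest and HF-Q 9 highest. A dimmer second Cdc6 probe gave -0.059 and followed the first weakly over the mice (r = 0.353).

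The 7 genes of DNA synthesis and nucleotide supply were all higher in HF-Q mice, by 0.0026 (Tk1) to 0.12 (Rrm1) with a median of 0.054, and 0 of 7 passed the test. Rrm1, the large subunit of ribonucleotide reductase, ranged from -0.83 to 0.35 (median -0.12) in HF mice and from -0.69 to 0.19 (median 0.095) in HF-Q mice and differed by 0.12 ± 0.14 (SE). Rrm2, its small subunit, made in S phase (mm9 chr12:25398824-25398883), ranged from -0.61 to 0.72 (median 0.017) in HF mice and from -0.62 to 0.40 (median 0.24) in HF-Q mice and differed by 0.086 ± 0.16 (SE). For both subunits the highest mouse was HF 10, and 8 of the 11 mice fed quercetin exceeded the median of the others. Pcna, the sliding clamp of the DNA polymerases, had the smallest spread over the mice, ranging from -0.29 to 0.14 (median -0.059) in HF mice and from -0.30 to 0.068 (median -0.039) in HF-Q mice. Its difference was 0.0054 ± 0.052 (SE) (95% interval -0.10 to 0.11), the narrowest interval but one among the 36 genes. Tyms, which makes thymidylate, had a narrower one still, with a difference of 0.059 ± 0.052 (SE) (95% interval -0.049 to 0.17). The remaining genes of this group, Lig1 (the ligase of lagging-strand fragments), Fen1 (the flap nuclease that trims them) and Tk1 (the thymidine kinase of S phase), differed by 0.023, 0.054 and 0.0026. A second Tk1 probe, also above background on every array, gave 0.11 and followed the first at r = 0.745.

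Ccnd1, the D-type cyclin through which growth signals reach the cell cycle, had the largest difference and the largest spread. Its probe (mm9 chr7:152116202-152116261) ranged from -1.15 to 0.61 (median -0.16) in HF mice and from -0.71 to 0.39 (median 0.10) in HF-Q mice, a 3.39-fold span over the 23 mice. The difference of 0.24 ± 0.21 (SE) had a 95% interval from -0.20 to 0.68 (adjusted p = 0.951 by limma). The SD was 0.67 in HF and 0.36 in HF-Q mice, and the difference between these spreads was not tested. The 2 groups overlapped, HF mice holding both the lowest value (HF 3) and the highest (HF 5). Ccne1, the E-type cyclin that starts S phase, ranged from -0.37 to 0.48 (median 0.070) in HF mice and from -0.38 to 0.61 (median 0.19) in HF-Q mice and differed by 0.063 ± 0.11 (SE).

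All 17 measured mitotic genes were higher in HF-Q mice, by 0.0047 (Cenpe) to 0.16 (Top2a) with a median of 0.082, and 0 of 17 passed the test. Without the 5 mice highest in acinar transcripts 7 of 17 were higher, with a median of -0.015. Cdk1, the kinase that drives entry into mitosis (mm9 chr10:68801072-68801131), ranged from -0.44 to 0.68 (median 0.12) in HF mice. In HF-Q mice Cdk1 ranged from -0.50 to 0.46 (median 0.31). Its difference was 0.090 ± 0.13 (SE), and dimmer Cdk1 probes gave -0.061 and 0.014. Ccna2, its partner cyclin of S and G2 phase, ranged from -0.78 to 0.65 (median 0.18) in HF mice and from -0.42 to 0.41 (median 0.25) in HF-Q mice and differed by 0.058 ± 0.15 (SE). The mitotic B-type cyclins differed by 0.069 (Ccnb1) and 0.10 (Ccnb2), with other Ccnb1 probes at 0.16 and 0.015. The mitotic kinases Plk1 and Aurka differed by 0.055 and 0.10. For these 6 genes HF 10 was the highest mouse, and HF 1 the lowest for all but Cdk1, whose lowest mouse was HF-Q 2.

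The checkpoint and mitotic exit genes had a median difference of 0.11. Bub1b, the BubR1 protein of the spindle checkpoint, ranged from -0.66 to 0.42 (median 0.023) in HF mice and from -0.49 to 0.54 (median 0.054) in HF-Q mice and differed by 0.13 ± 0.14 (SE). Bub1, its kinase partner, differed by 0.11. Cdc20, which activates the anaphase-promoting complex, ranged from -0.65 to 0.66 (median 0.19) in HF mice and from -0.35 to 0.44 (median 0.27) in HF-Q mice and differed by 0.082 ± 0.14 (SE). Ube2c, the ubiquitin-conjugating enzyme of that complex, differed by 0.11. Birc5, or survivin, a member of the chromosomal passenger complex like the unmeasured Aurkb, differed by 0.041 with its brightest probe and by 0.12 and 0.072 with 2 others.

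Top2a, the topoisomerase that untangles sister chromosomes (mm9 chr11:98855522-98855581), ranged from -0.83 to 0.38 (median -0.087) in HF mice and from -0.63 to 0.34 (median 0.18) in HF-Q mice. Its difference of 0.16 ± 0.14 (SE) (95% interval -0.13 to 0.45) was the largest of the mitotic genes. Cenpa, the histone variant that marks centromeres, ranged from -0.69 to 0.35 (median -0.046) in HF mice and from -0.38 to 0.35 (median 0.14) in HF-Q mice and differed by 0.15 ± 0.11 (SE), with 9 of 11 above the median of the HF mice and an unadjusted p of 0.175 (adjusted p = 0.951 by limma). Mki67, the gene of the proliferation marker Ki-67 (mm9 chr7:142881591-142881650), ranged from -0.86 to 0.52 (median 0.061) in HF mice and from -0.83 to 0.35 (median 0.13) in HF-Q mice. Its difference was 0.0073 ± 0.17 (SE) (95% interval -0.35 to 0.36), and a second probe gave -0.034, so the sign depended on the probe. The motor proteins Kif11, which pushes spindle poles apart, and Cenpe, which moves chromosomes to the spindle equator, differed by 0.062 and 0.0047. Tpx2, the spindle factor that activates Aurka, differed by 0.072, and a dimmer second probe that followed the first poorly over the mice (r = 0.223) gave -0.072.

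While the diets differed little, the mice differed much, and they did so in a similar order for most of the genes. The mean of the 17 replication genes and the mean of the 17 mitotic genes correlated over the 23 mice with Pearson r = 0.967 and Spearman rho = 0.853. The mitotic mean spread more widely, from -0.66 in HF 1 to 0.50 in HF 10 (SD 0.32), than the replication mean, from -0.49 in HF-Q 2 to 0.30 in HF 10 (SD 0.24). Within the 15 mice numbered 5 and above, rho between the means was lower, at 0.546. Both means come from the same arrays and the same reference pool, and these correlations are given as a description with no p. In bulk tissue a lower mean can reflect fewer dividing cells or less RNA in each of them, which cannot be told apart here.

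**Figure D2:**
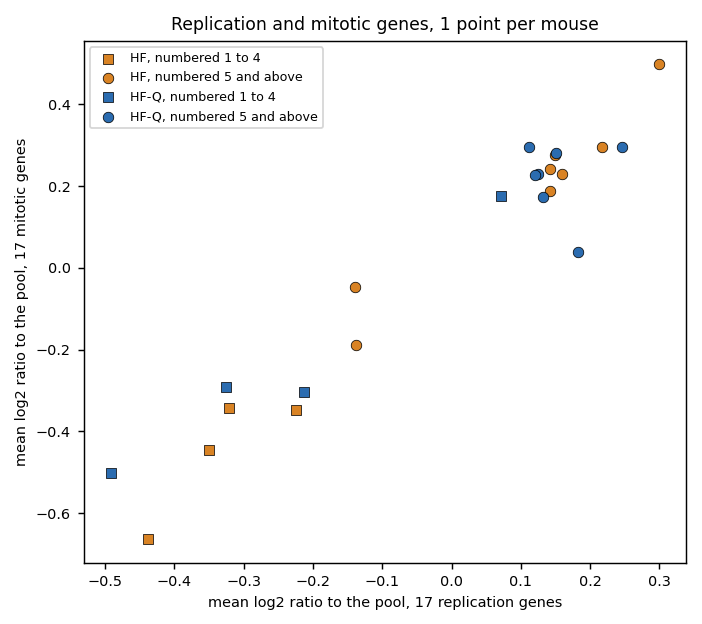
Mean log2 ratio to the pool of 17 replication genes (x axis) against that of 17 mitotic genes (y axis), 1 point per mouse, coloured by diet and shaped by the replicate number in the labels. The points lie along a line (r = 0.967), with 7 of the 8 mice numbered 1 to 4 at its lower end and HF 10 at its upper end.

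The relation was present in each part of the data. It was 0.987 (rho 0.951, n = 12) in HF mice and 0.946 (rho 0.591, n = 11) in HF-Q mice. On the 3 slides, each of which was also 1 scan and held both diets, r was 0.981 (n = 8), 0.946 (n = 7) and 0.984 (n = 8). Leaving out HF-Q 2 and HF 1, the 2 mice farthest from the median replication mean, gave 0.958. Of the 11 HF-Q mice, 8 lay close together, between 0.038 and 0.30 in their mitotic mean.

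The mice fell into a low and a high range along the replicate numbers of the labels. The 7 lowest mitotic means belonged to HF 1, 2, 3 and 4 and HF-Q 1, 2 and 3. Of the 8 mice numbered 1 to 4 of either diet, 7 had a mitotic mean below 0, and their median was -0.35 (range -0.66 to 0.17). Of the 15 mice with higher numbers, 2, HF 6 and HF 9, were below 0, and the median was 0.23 (range -0.19 to 0.50). The replication mean split likewise, with medians of -0.32 and 0.14. The labels do not say what the numbers stand for, both diets hold each number up to 11, and the split was noticed in the data. Within the mice numbered 5 and above the correlation of the means was 0.861 (rho 0.546, n = 15), and within those numbered 1 to 4 it was 0.933 (rho 0.810, n = 8).

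The diet difference was examined in both ranges. Among mice numbered 1 to 4, the mean of the 36 genes was -0.40 ± 0.12 (SD, n = 4) in HF and -0.24 ± 0.26 (SD, n = 4) in HF-Q mice. The single mouse HF-Q 4, at 0.12, lay above the 7 others. Among those with higher numbers it was 0.15 ± 0.19 (SD, n = 8) and 0.19 ± 0.047 (SD, n = 7). The median difference of the genes was 0.20 in the first range and 0.050 in the second, and 0 of 36 passed the test of limma in either.

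**Figure D3:**
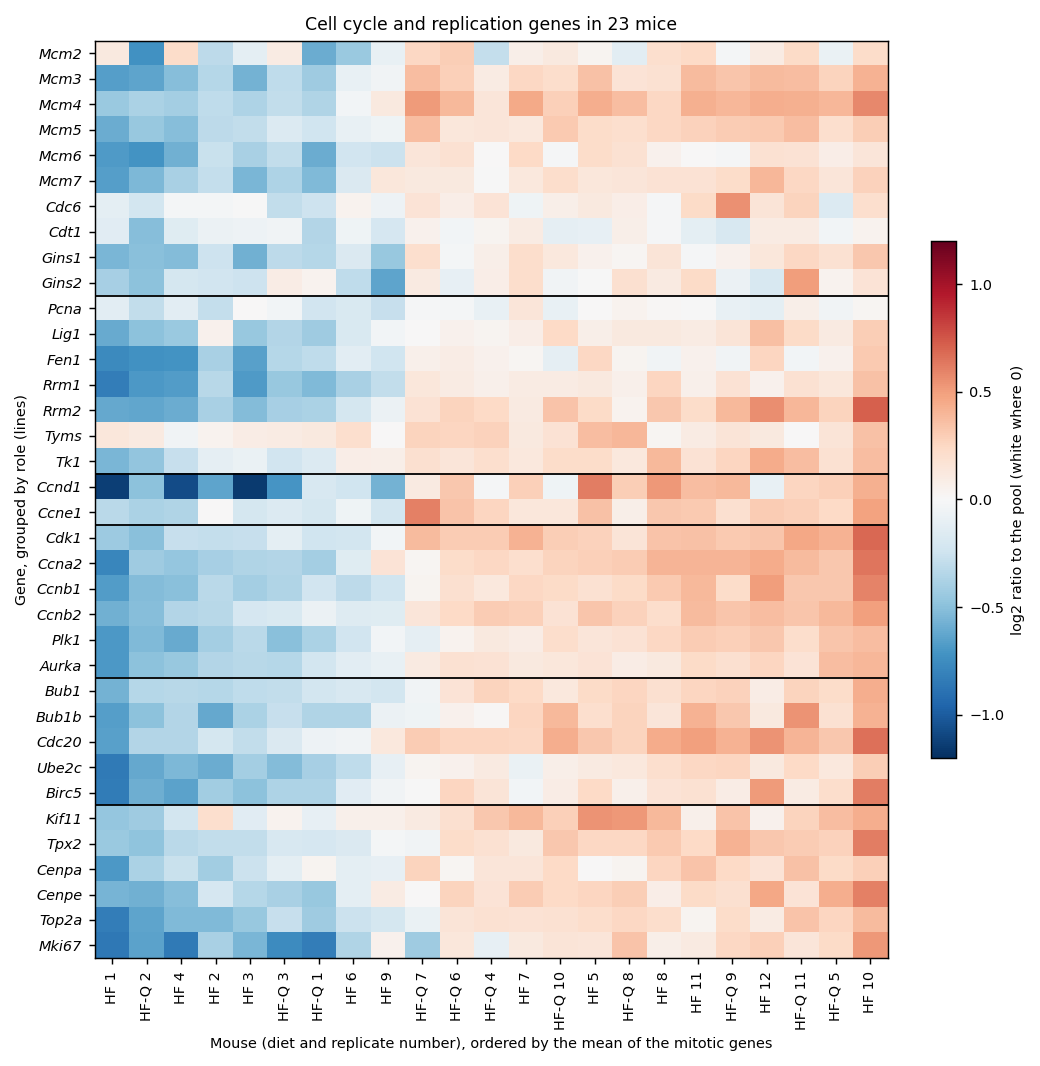
Log2 ratio to the pool (colour, red above and blue below 0) of the 36 measured genes (rows, by role) in each of the 23 mice (columns, ordered by the mean of the 17 mitotic genes). Most rows turn from blue to red along the same order, while Mcm2, Cdc6, Cdt1, Gins2, Pcna and Tyms follow it weakly or change little.

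Single genes followed the shared order to different degrees. Among all 630 pairs of the 36 genes the median r was 0.877, and 441 pairs (70%) had r over 0.7, against 1.21% of all pairs of the 21477 genes. The mitotic genes were the tighter set, with a median r of 0.930 and 135 of 136 pairs over 0.7. The replication genes had a median r of 0.642 and 59 of 136 pairs over 0.7. Between a replication and a mitotic gene the median was 0.874, with 190 of 289 pairs over 0.7. Of the 17 replication genes, 6 had r under 0.7 with the mean of the others, and they are described next.

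Each gene was set against the mean of the replication genes and the mean of the mitotic genes, with the gene itself left out of the mean. The ring subunits Mcm3, Mcm4, Mcm5, Mcm6 and Mcm7 correlated with the replication mean at 0.981, 0.962, 0.962, 0.959 and 0.939. Mcm2, the sixth subunit of the same ring, reached 0.516, although its SD over the mice (0.28) was near that of Mcm5 (0.31). Gins2 reached 0.632, while its complex partner Gins1 reached 0.941. The loading factors Cdc6 and Cdt1 reached 0.640 and 0.664, Pcna 0.632 and Tyms 0.409.

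4 of these 6 genes also had a small spread. The SD over the mice was 0.12 for Pcna, 0.12 for Tyms, 0.15 for Cdt1 and 0.19 for Cdc6, against 0.28 to 0.40 for Lig1, Fen1, Rrm1 and Rrm2. The processing bears on some of these spreads. With the log ratio of the scanner software, which adds no offset to dim signals, the SD was 0.24 for Tyms and 0.42 for Cdc6, but 0.13 for Pcna. Pcna thus remained nearly level, spanning 1.35-fold over the mice, while Rrm2 spanned 2.53-fold and Tk1 1.99-fold.

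**Figure D4:**
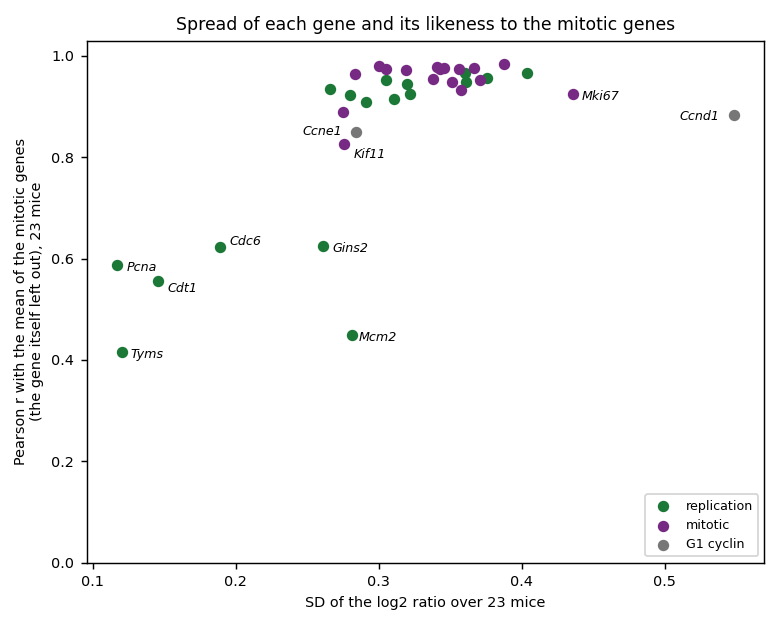
Standard deviation of each gene's log2 ratio over the 23 mice (x axis) against its Pearson r with the mean of the 17 mitotic genes, the gene itself left out (y axis), coloured by group. Pcna, Tyms, Cdt1, Cdc6, Gins2 and Mcm2 lie below 0.7 and the other 30 genes above 0.8, with Ccnd1 farthest to the right.

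All 17 mitotic genes correlated with the mean of the other mitotic genes at 0.826 (Kif11) or more, the highest being Ccna2 at 0.984. Mki67 reached 0.924 and had the widest spread of the mitotic genes (0.44). It was lowest in HF 1, and its 2 probes agreed over the mice (r = 0.979). The G1 cyclins followed as well: Ccnd1 correlated with the replication and mitotic means at 0.862 and 0.884, and Ccne1 at 0.925 and 0.850. Of the dim probes, that of Cdk1 read above background on 15 of 23 arrays went against its bright probe (r = -0.227), and the other dim Cdk1 probe followed it (r = 0.794).

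Pairs of single genes named without regard to their correlation were tested, 4 in all, with 100000 permutations and adjustment over the 4. The permutations took no account of the low and high range of mice, so the p values do not separate that split from other shared movement. Mcm5 and Mki67 gave r = 0.843 and rho = 0.745 (adjusted permutation p = 5.3e-05 and 2.3e-04, n = 23). Mcm6 and Top2a gave r = 0.920 and rho = 0.757 (adjusted permutation p = 4.0e-05 and 2.3e-04, n = 23). For this r the unadjusted permutation p of 1.0e-05 lay at the resolution of 100000 permutations. Pcna and Cdk1 gave r = 0.681 and rho = 0.679 (adjusted permutation p = 3.3e-04 and 4.3e-04, n = 23). Ccnd1 and Mki67 gave r = 0.794 and rho = 0.721 (adjusted permutation p = 5.3e-05 and 2.3e-04, n = 23). The relations stayed positive without the 2 mice farthest from the median of the first gene, at r = 0.778, 0.883, 0.566 and 0.757. On slides 1, 2 and 3, r was 0.855, 0.764 and 0.953 for Mcm5 and Mki67, and 0.931, 0.911 and 0.919 for Mcm6 and Top2a. For Ccnd1 and Mki67 it was 0.761, 0.813 and 0.935, and for Pcna and Cdk1 0.231, 0.881 and 0.835, so that the last pair was weak on slide 1.

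The pairs with Mki67 were weaker within the high range of mice. Among the 15 mice numbered 5 and above, r was 0.304 for Mcm5 and Mki67 and 0.375 for Ccnd1 and Mki67. It was 0.702 for Mcm6 and Top2a and 0.679 for Pcna and Cdk1.

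Markers of some other cell types in the scraping moved with the cell cycle genes over the mice, and those of others did not. The mean of 8 crypt base stem cell markers correlated with the replication mean at r = 0.951 and with the mitotic mean at 0.894. It ran from -0.44 to 0.48 in HF and from -0.74 to 0.36 in HF-Q mice. By gene, r with the replication mean was 0.978 for Smoc2, 0.915 for Olfm4, 0.901 for Ascl2 and 0.858 for Lgr5, the receptor that marks the crypt base stem cell. It was 0.949 for Cdca7 and 0.921 for Sox9, but 0.630 for Axin2 and 0.0638 for Rnf43. Paneth cells sit beside the stem cells and do not divide, and the mean of their 5 measured markers of 7 correlated at 0.907 and 0.859, with Lyz1 at 0.945 and Mmp7 at 0.932. The Paneth mean spanned more than the cell cycle genes, from -1.74 to 0.84.

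As a mean, the enterocyte markers ran the other way. The mean of all 12 correlated at -0.793 with the replication mean and -0.771 with the mitotic mean, led by the apolipoproteins Apoa1 (-0.853) and Apoa4 (-0.828), the trehalose-splitting enzyme Treh (-0.744) and the villus alkaline phosphatase Alpi (-0.711). Others did not share this: Anpep stood at -0.176, Mep1a at -0.0989, Sis, the sucrase of the villus, at -0.0674 and the glucose transporter Slc5a1 at 0.120. Fabp2, Lct, Fabp1 and Vil1 lay between, at -0.583, -0.581, -0.529 and -0.424. Smooth muscle markers, 7 of 8 measured, went with the cell cycle genes, at 0.742 and 0.716, and their mean ran from -1.40 to 1.09.

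With the replication mean, r was -0.638 for markers of the proximal small intestine and 0.157 for those of the distal part. It was -0.302 for acinar, 0.290 for B cell, -0.224 for T cell, -0.0944 for goblet and 0.0630 for hepatocyte markers. The goblet markers were split, with Spink4 at 0.775 and Zg16 at -0.778. The acinar mean had the widest range of all lists, from -3.96 to 2.33 on the log2 scale. In the means of the marker lists, HF-Q minus HF was -0.59 for acinar, -0.25 for smooth muscle, 0.18 for T cell, -0.14 for Paneth and -0.076 for enterocyte markers. It was -0.070 for proximal, -0.050 for goblet, -0.047 for stem cell, -0.037 for hepatocyte, -0.017 for B cell and -0.0020 for distal markers. The part of the crypt, villus, muscle and pancreas content of a scraping in the spread of the cell cycle genes was not tested.

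**Figure D5:**
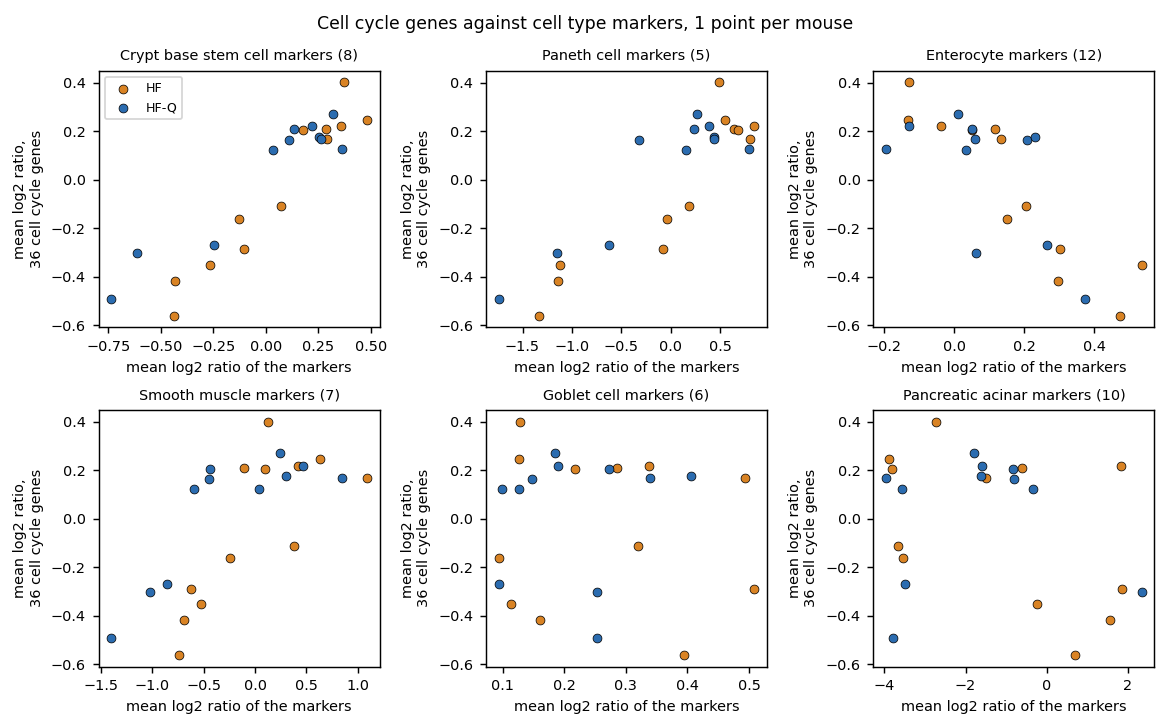
Mean log2 ratio to the pool of the 36 measured cell cycle genes (y axis) against the mean of the markers of 6 cell types (x axes; number of markers in brackets), 1 point per mouse coloured by diet. Stem cell, Paneth and smooth muscle markers go up with the cell cycle genes (r with the replication genes 0.951, 0.907 and 0.742), enterocyte markers go down (-0.793), and the means of the goblet and acinar markers have r of -0.0944 and -0.302.

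Other genes of the same pathways were examined as lists. Of 34 further replication genes 32 were measured; 29 were higher and 3 lower in HF-Q mice, with a median of 0.051, and 0 passed the adjusted test while 2 had an unadjusted p under 0.05. Orc2, a subunit of the origin recognition complex, differed by 0.14 ± 0.052 (SE) and Pold2, a subunit of DNA polymerase delta, by 0.15 ± 0.079. On the other side was Mcm10, a factor of helicase activation, at -0.031 ± 0.079. The unadjusted p of Orc2 was 0.0140, and its adjusted p was 0.951 by limma.

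Of 43 further mitotic genes 41 were measured, 36 of them higher and 5 lower, with a median of 0.083 and 0 past the test. Hmmr, a spindle-associated hyaluronan receptor, differed by 0.17 ± 0.091 and Nuf2, a kinetochore subunit, by 0.19 ± 0.10. The kinetochore protein Cenpf differed by -0.093 ± 0.070 and Cep55, which acts in the final cut between daughter cells, by -0.10 ± 0.085. Of 24 regulators of the step from G1 to S phase 22 were measured, 17 higher and 5 lower, with a median of 0.052. Rbl1, or p107, a relative of the retinoblastoma protein, had the smallest unadjusted p of the list (0.00843, adjusted p = 0.951 by limma) with a difference of 0.17 ± 0.061. Tfdp1, the partner of the E2F factors, differed by 0.16 ± 0.092, Rb1, the retinoblastoma gene itself, by -0.064 ± 0.053 and the cyclin Ccnd3 by -0.018 ± 0.046. The 7 inhibitors of cyclin-dependent kinases had a median of 0.0094, 4 higher and 3 lower, with Cdkn2b at 0.078 ± 0.079, Cdkn2a at 0.094 ± 0.10, Cdkn1c at -0.060 ± 0.12 and Cdkn1b at -0.0044 ± 0.049. Among the regulators 0 passed the adjusted test and 1, Rbl1, had an unadjusted p under 0.05, and for the inhibitors both counts were 0. Without the 5 mice highest in acinar transcripts, 17 of 32 further replication genes, 22 of 41 mitotic genes, 14 of 22 regulators and 3 of 7 inhibitors were higher in HF-Q mice, against 45.3% of all genes.

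Over the mice, most of these genes followed the mitotic mean. The share with r over 0.7 was 23 of 32 for the further replication genes (median r 0.826), 34 of 41 for the mitotic ones (median 0.926), 12 of 22 for the regulators (median 0.733) and 1 of 7 for the inhibitors (median 0.311). Over all genes it was 8.56%, and 2.44% of all genes had r under -0.7. Cdc45 (-0.299), a core part of the active helicase, did not follow, nor did Pttg1, or securin (0.00809). Both varied little over the mice, with an SD of 0.10 for Cdc45 and 0.095 for Pttg1. Pola2 (-0.134) and Cep55 (0.213) were among others that did not follow. The 8 E2F factors were split: r was over 0.7 for E2f8 (0.945), E2f7 (0.843), E2f1 (0.836) and E2f6 (0.803), and under it for E2f4 (0.560), E2f5 (0.284), E2f2 (0.278) and E2f3 (0.0576). Of the other transcription factors of the list, Mybl2 (0.911), Foxm1 (0.878) and Myc (0.890) went with the mitotic genes. Lin9 (0.894) and Tfdp1 (0.737) did so too, whereas Lin54 was weaker (0.341). The retinoblastoma relatives were weaker, with Rbl1 at 0.615, Rb1 at 0.147 and Rbl2 at -0.194. The inhibitors were split: Cdkn2c, or p18, followed the mitotic genes (0.883), whereas Cdkn1c, or p57, and Cdkn1a, or p21, ran against them (-0.70 and -0.571).

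Outside the 37 genes, the named genes closest to the mitotic mean over the 23 mice were Cdca3 (0.983), Myb (0.977), Kif22 (0.977), Tacc3 (0.977), Asf1b (0.977), Incenp (0.974), Hmgb2 (0.973), Cdca8 (0.971), Racgap1 (0.971) and Tuba1b (0.970), each value a Pearson r. Of these 10, 5 were on the lists of replication and mitotic genes above. Closest to the replication mean were Prim1 (0.985), Cnn3 (0.982), Smoc2 (0.978), Tuba1b (0.977), Rcc2 (0.973), Hmgn1 (0.972), Exo1 (0.972), Myb (0.971), Chaf1b (0.970) and Dut (0.970). Cdca3 promotes entry into mitosis, Incenp and Cdca8 are partners of Aurkb in the passenger complex, Tacc3 stabilises spindle fibres, and Tuba1b is a tubulin. Prim1 is the catalytic subunit of primase, Chaf1b places histones on new DNA, Dut clears dUTP from the nucleotide pool, and Smoc2 is the stem cell marker named above. The ranking took in 14039 genes with a gene symbol, and 9.6% of all genes had r over 0.7 with the replication mean.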

How the data were processed

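Each of the 23 mice gave 1 array. Scanning used Agilent Feature Extraction 10.7.3.1, per the file headers. Its mean signal and local background, per the file headers, are intensity values on a linear scale, without normalization. A log10 ratio of Cy5 over Cy3 from that software and the authors' table of log2 values (31718 spots, as deposited, with the normalization not stated in the labels or headers) served as alternatives.

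Computation was in R 4.3.3 with limma 3.58.1. Background was corrected by normexp (offset 50), arrays by loess with 3671 control spots at weight 0, and outlier spots (260 to 355 per array) were dropped. A probe needed a Cy5 signal well above background in 50% or more of one diet's arrays (29249 of 55681 kept), and the brightest probe stood for a gene. The brighter the probe, the less the offset compresses its ratio. HF-Q was tested against HF over 21477 genes with lmFit and eBayes, two-sided, Benjamini-Hochberg, threshold 0.05, no covariate. On simulated data the script made 5 false calls. Arrays give no counts, so their number limits the precision. Replicates are separate mice, per the labels.

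Named are all 37 genes, the 2 genes of smallest unadjusted p per direction of each further list, and the genes nearest to the 2 means over the mice. 1 gene that this rule names is not reported here. Values singled out within these lists, such as transcription factors and cell type markers, were chosen after their values were seen. Genes were matched to RefSeq (GRCm38.p6) for names. Probe positions in the files are on build mm9, and exon or UTR positions were not analysed here. The genes and lists were chosen with earlier results of these data known. Alternatives were the scanner ratio, the authors' table, median centring, all probes averaged, no filter, slide as a block or alone, and the replicate number as a block. 3 subsets of mice were added after seeing the data.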

Additional observations from a re-analysis of the deposited data

How the results depend on the processing

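In every setting run, 0 of the member genes passed an adjusted p of 0.05. The count of higher genes, 34 of 36 as reported, was 16 without the 5 mice highest in acinar markers (median -0.0087) and 23 to 35 under the other settings. The correlation of the replication and mitotic means, 0.967, moved to 0.987 in HF mice and to 0.861 in mice numbered 5 and above, and was 0.933 to 0.984 elsewhere. Median centring shifted the median of all genes to 0.049 and that of the 36 genes to 0.14. Mice with the same replicate number in both diets did not deviate together in every pair. Over 11 pairs the correlations ran from -0.344 to 0.393, and 2 of 11 HF mice matched best with their own number. The 5 over 0.1 were those of numbers 1 (0.334), 3 (0.301), 5 (0.288), 10 (0.169) and 11 (0.393). With the replicate number as a block, 34 genes were higher, the median was 0.10 and 0 were called. Of 676 values of the 52 named genes under the alternatives, 593 kept their sign and 83 turned, all of them uncalled log2 differences. The causes were not tested. On slide 1 alone, the sign turned for Mcm2 0.20, Cdc6 -0.020, Cdt1 0.046, Fen1 -0.0028, Tyms -0.011, Tk1 -0.040, Ccna2 -0.0020, Plk1 -0.036, Birc5 -0.035, Cenpe -0.051, Mki67 -0.062 and Cdkn1c 0.024. In mice numbered 5 and above, the sign turned for Mcm2 0.056, Cdt1 0.011, Fen1 -0.054, Tk1 -0.022, Ccna2 -0.024, Cdc20 -0.0045, Birc5 -0.072, Cenpe -0.015 and Ccnd3 0.0030. Without the 5 mice highest in acinar markers, the sign turned for Mcm4 -0.0094, Mcm6 -0.024, Mcm7 -0.035, Pcna -0.0079, Lig1 -0.023, Fen1 -0.071, Rrm2 -0.031, Tk1 -0.10, Ccna2 -0.063, Ccnb1 -0.031, Plk1 -0.048, Aurka -0.0039, Cdc20 -0.037, Birc5 -0.10, Kif11 -0.019, Tpx2 -0.015, Cenpe -0.090 and Mki67 -0.10. With all probes of a gene averaged, the sign turned for Cdc6 -0.028, Tpx2 -0.00015, Mki67 -0.014, Ccnd3 0.010 and Cdkn1b 0.0074. On slide 2 alone, the sign turned for Cdc6 -0.17, Pcna -0.023, Lig1 -0.0087, Rrm2 -0.0081, Tyms -0.015, Ccna2 -0.054, Bub1b -0.029, Birc5 -0.0093, Tpx2 -0.049, Cenpe -0.046, Mki67 -0.19, Cep55 0.10, Cdkn1c 0.15 and Cdkn1b 0.071. In mice numbered 1 to 4, the sign turned for Cdc6 -0.11, Pcna -0.030, Cenpf 0.0096, Cep55 0.15 and Cdkn1b 0.12. With median centring, the sign turned for Cdt1 0.046, Mcm10 0.042, Rb1 0.014, Ccnd3 0.063, Cdkn1c 0.0093 and Cdkn1b 0.080. On slide 3 alone, the sign turned for Gins2 -0.045, Pcna -0.043, Tk1 -0.0041, Mcm10 0.11, Cenpf 0.0047, Rb1 0.076, Ccnd3 0.067, Cdkn2b -0.043 and Cdkn2a -0.034. With slide as a block, the sign turned for Tk1 -0.00029 and Mki67 -0.00076. With the scanner's log ratio, the sign turned for Cenpf 0.032. In the authors' table, the sign turned for Cdkn1b 0.021. With the replicate block, the sign turned for Cdkn1b 0.0061. The number of mice and the brightness of a probe limit what can be seen.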

Other observations

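Goblet cell markers did not move as one group over the mice. Spink4 and Agr2 went with the replication mean (r = 0.775 and 0.626), whereas Zg16 and Tff3 went against it (-0.778 and -0.538), so that the near-zero value of the list is an average over both. Among the T cell markers, Cd4 stood at -0.869, while Cd3e, Cd3g, Cd3d and Cd8a lay between -0.341 and -0.166. Gzmb and Gzma were at -0.103 and -0.098, and Cd2 went the other way, at 0.242. These markers were singled out after their values were seen.

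The named genes with the lowest r to the mitotic mean were Npb (-0.903), Nanos3 (-0.897), Lmnb2 (-0.892), Slc35e4 (-0.886) and Gchfr (-0.884). Of all genes, 2.44% had r under -0.7 with the mitotic mean and 2.53% with the replication mean.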
